A study of Mus musculus with 13 samples.

Results

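The genes described here are the TNF superfamily ligands and receptors that carry a Tnfsf or Tnfrsf symbol, Tnf itself, the TRAF adaptors, the ligases Birc2 and Birc3, the NF-kB subunits, the IkB proteins and the TNF-induced proteins named Tnfaip. They were chosen by symbol alone. The rule found 63 genes, 62 of them among the 21056 genes present in all 4 deposited tables. They were 12 ligands, 20 receptors, 12 TRAF and IAP genes, 5 subunits, 6 IkB genes and 8 TNF-induced genes.

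RNA was sequenced from the brains of 13 male mice in 4 groups. By their labels, all mice carried a tamoxifen-inducible Cre recombinase in 1 copy of Cx3cr1 (CX3CR1creER/+). They also carried a Cre-dependent diphtheria toxin receptor (iDTR) at the Rosa26 locus. All received 2 doses of tamoxifen by gavage at 7 to 8 weeks of age. The groups were tMCAO_MG_DE (n = 2), tMCAO_MG_CON (n = 4), sham_MG_DE (n = 4) and sham_MG_CON (n = 3). Mice of the DE groups received diphtheria toxin at 50 ng per g on 3 days from 30 days after tamoxifen, which removes cells with a recombined receptor gene, and mice of the CON groups received saline. Mice of the tMCAO groups had the middle cerebral artery blocked by a filament for 60 min and then reperfused, and mice of the sham groups had the surgery without the block. Cx3cr1 is active in microglia and in other mononuclear phagocytes, so the Cre driver is not restricted to microglia. The surgery protocol gives an age of 6 to 8 weeks, which cannot be joined with tamoxifen at 7 to 8 weeks followed by 30 days. The number written after Rosa differs from label to label and was read as 1 locus. The labels of tMCAO_MG_CON replicate 4 disagree, with sham surgery in its treatment entry and tMCAO in its title, and the title was followed. When the brains were taken after occlusion, and from which region, is not given in the sources used here.

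TNF and its relatives are signals of inflammation that bind trimeric receptors at the cell surface. The receptors recruit TRAF adaptors and IAP ligases, and these lead to NF-kB, a family of paired transcription factors. IkB proteins such as IkB alpha (Nfkbia) hold these factors in the cytoplasm. In the canonical branch the pair contains Rela and Nfkb1, and in the non-canonical branch Traf3 and Birc3 limit a kinase, Map3k14, that drives the processing of Nfkb2 and the entry of Relb into the nucleus. In brain, microglia are a known source of TNF, Tnfrsf1a is widely expressed, and Tnfrsf1b is enriched in microglia and endothelium.

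Libraries held 16240416 to 22081167 counts. Levels are given in FPKM as the authors deposited them, fragments scaled to gene length and library size, so they can be compared between genes. Differences are given on the log2 scale with the standard error from a count model. The p-values are those of edgeR's quasi-likelihood test, adjusted over 16940 genes, and a gene was called at an adjusted p under 0.05. Depletion was visible in Csf1r, the survival receptor of microglia, at 1.05 and 1.46 FPKM in tMCAO_MG_DE, 13.5 to 17.3 FPKM in tMCAO_MG_CON, 1.03 to 2.67 FPKM in sham_MG_DE and 15.1 to 15.5 FPKM in sham_MG_CON. Summed levels of 8 microglial markers were 45.5 to 50.2 CPM (counts scaled to library size) in tMCAO_MG_DE, 240 to 305 in tMCAO_MG_CON, 38.6 to 64.2 in sham_MG_DE and 271 to 279 in sham_MG_CON. In such bulk samples, fewer cells of a type and less RNA per cell cannot be told apart. The 7 neutrophil markers summed to 37.8 CPM in sham_MG_CON replicate 2 and 28.8 CPM in sham_MG_DE replicate 3, against 2.11 to 14.3 CPM in the other 11 libraries. Counts of calls are also given without that pair of libraries. Cx3cr1 also read 3.42 FPKM in sham_MG_CON replicate 2, against 0.158 and 0.164 FPKM in replicates 1 and 3. It read 0.157 to 0.305 FPKM in tMCAO_MG_CON, and the reason for the high value was not tested.

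Most members were expressed at low levels. The mean over the 13 libraries exceeded 10 FPKM in 4 members, lay between 1 and 10 FPKM in 26 and was under 1 FPKM in 32. The 4 were Tnfrsf21, the death receptor DR6 (21.9 FPKM), Nfkbia, which encodes the inhibitor IkB alpha (15.1 FPKM), Tnfrsf19, a receptor also called TROY (14.9 FPKM), and Tnfaip1, a ubiquitin ligase adaptor (14.0 FPKM). None of those 4 except Nfkbia was called by edgeR in any comparison. A filter on low counts left 57 members for testing. Tnf passed that filter only through tMCAO_MG_CON. Its count there had to exceed that of other groups, and its values are given as a description without a test. Tnfsf8 reached the level of the filter in tMCAO libraries only, and Tnfrsf13b in CON libraries only. The filter asked for that level in at least 2 libraries. Of the sham libraries, only sham_MG_CON replicate 3 reached it for Tnfsf9. Of the CON libraries, only tMCAO_MG_CON replicate 3 reached it for Tnfrsf13c. Of the DE libraries, only sham_MG_DE replicate 3 reached it for Tnfaip8l2 and replicate 2 for Traf3ip3. Calls of Tnfsf8 and Tnfsf9 over sham are thus not independent of the filter. Nor are those of Tnfrsf13b, Tnfrsf13c, Tnfaip8l2 and Traf3ip3 between DE and CON groups. The members left untested for low counts were Tnfrsf17, Tnfrsf18, Tnfrsf26, Tnfsf11 and Tnfsf18, with 8 to 41 counts each over the 13 libraries, and Tnfsf14 was listed in the tMCAO tables only.

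Of the 57 members tested, 27 were called in at least 1 of the 4 comparisons and 30 in none. Without Tnf these were 26 of 56 (46.4%), against 5635 of all 16940 genes tested (33.3%). Promoters of 4 of the members most discussed here are shown. Each holds a match to a loose pattern of the kB site, the DNA element that NF-kB pairs bind. Sequences are from RefSeq on GRCm38.p6 and run from 250 bases before to 50 bases after the start of transcription, 5′ to 3′ on the strand of the gene, with the matches to GGNNNTTCC or its reverse complement GGAANNNCC in capitals.
Tnfrsf1a, chr6:125349473-125349772, plus strand: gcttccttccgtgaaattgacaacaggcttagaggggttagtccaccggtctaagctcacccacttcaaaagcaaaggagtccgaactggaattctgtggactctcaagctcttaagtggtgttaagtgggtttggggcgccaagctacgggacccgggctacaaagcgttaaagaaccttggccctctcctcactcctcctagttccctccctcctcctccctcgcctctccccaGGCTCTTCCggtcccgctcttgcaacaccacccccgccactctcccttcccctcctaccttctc
Tnf, chr17:35201958-35202257, minus strand: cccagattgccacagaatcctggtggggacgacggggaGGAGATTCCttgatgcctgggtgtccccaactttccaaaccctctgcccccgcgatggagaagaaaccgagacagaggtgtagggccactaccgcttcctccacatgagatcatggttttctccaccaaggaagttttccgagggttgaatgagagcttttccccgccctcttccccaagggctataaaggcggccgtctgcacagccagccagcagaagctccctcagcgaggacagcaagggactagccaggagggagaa
Nfkb2, chr19:46304487-46304786, plus strand: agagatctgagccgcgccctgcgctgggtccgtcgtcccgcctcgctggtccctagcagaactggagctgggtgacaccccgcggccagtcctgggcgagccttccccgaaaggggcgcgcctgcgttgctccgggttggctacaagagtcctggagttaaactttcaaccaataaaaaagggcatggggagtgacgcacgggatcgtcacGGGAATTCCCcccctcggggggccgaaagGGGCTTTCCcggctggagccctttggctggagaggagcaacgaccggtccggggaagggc
Nfkbia, chr12:55492598-55492897, minus strand: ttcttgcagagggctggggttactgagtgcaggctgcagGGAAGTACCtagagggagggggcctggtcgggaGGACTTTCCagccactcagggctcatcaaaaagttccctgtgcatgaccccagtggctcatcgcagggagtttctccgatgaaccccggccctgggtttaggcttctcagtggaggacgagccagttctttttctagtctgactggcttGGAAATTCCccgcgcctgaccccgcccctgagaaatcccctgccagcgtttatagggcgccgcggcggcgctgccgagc
The match in Tnfrsf1a began 14 bases before the start, and that in Tnf 212 bases before it. Nfkb2 had 3 matches, beginning at 39, 38 and 10 bases before the start, of which the first pair overlap as 1 run. For Nfkb2, 3 starts are listed, each with a match, and 1 is shown. The windows of Tnfrsf1a and Nfkb2 lie inside the GENCODE genes, so these distances hold only for the RefSeq starts shown. Nfkbia had 4 matches at 3 positions, 211, 178 and 29 bases before the start, since the last reads as a match on both strands. The motif was found in 19 of 51 member genes with a listed promoter (37.3%), against 5584 of 27025 genes in the table (20.7%). Its TTCC end, read on the other strand, is also the GGAA core of ETS factor sites, so a match is a description of the letters and not of a bound site.

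**Figure D1:**
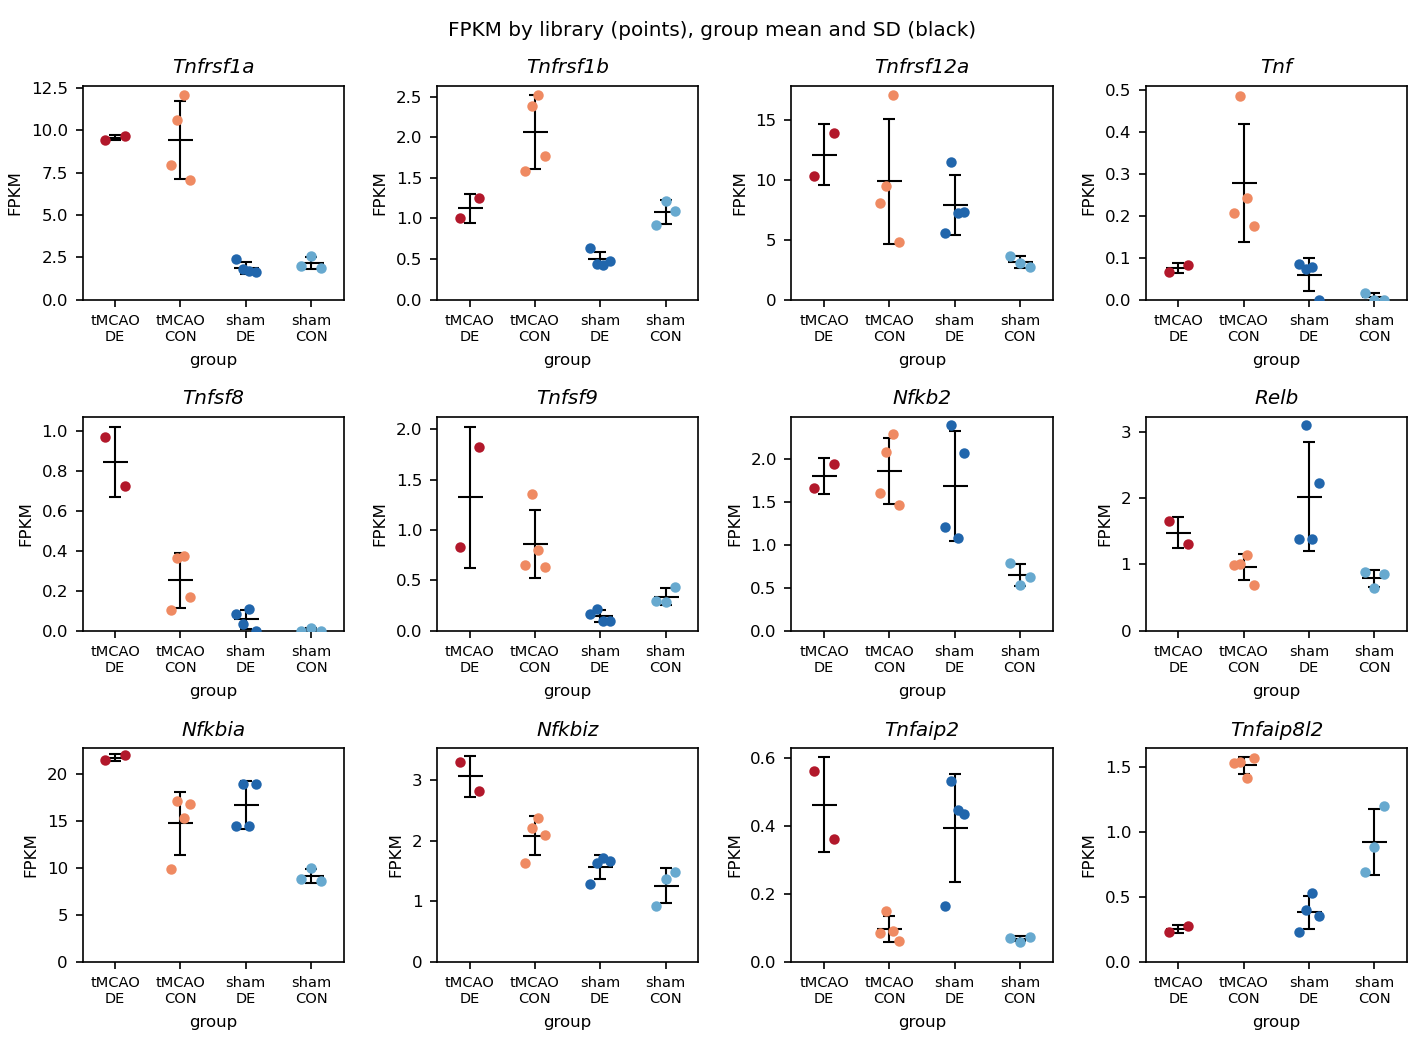
FPKM of 12 members in each of the 13 libraries (points) with the group mean and SD (black), groups along the horizontal axis and FPKM on the vertical axis. Tnfrsf1a was 7.06 to 12.1 FPKM in every tMCAO library and 1.65 to 2.57 FPKM in every sham library, whereas Tnfrsf1b was lower in each DE group than in the CON group of the same surgery.

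Stroke with microglia present was described by tMCAO_MG_CON (n = 4) against sham_MG_CON (n = 3). Of the 57 members tested, 12 were higher, 11 of them without Tnf, and 0 were lower, against 8.44% called among all genes, 5.14% higher and 3.31% lower. The receptors Tnfrsf1a and Tnfrsf1b, the ligand Tnfsf8, the subunits Nfkb2 and Rela and the IkB genes Nfkbia and Nfkbiz were among the 11. The median log2 fold change of the tested members was 0.19, against 0.02 for all genes tested. At an unadjusted p under 0.05, edgeR gave 18 higher (32.1%) and 3 lower (5.36%) of the 56 members without Tnf, against 13.1% higher and 10.7% lower among all genes. With Tnf counted, DESeq2 called 12 higher and 3 lower, the 3 being Tnfrsf21, Tnfrsf25 and Traf3. Without tMCAO_MG_CON replicate 4, the library with the conflicting label, 8 were higher and 0 lower, Tnf included.

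Among the ligands, Tnf, the founding cytokine of the family, had 11, 30, 12 and 11 counts in tMCAO_MG_CON and 1, 0 and 0 counts in sham_MG_CON. The groups did not overlap, and replicate 2 held the most counts. The ratio of the counts, after scaling by TMM-adjusted library sizes, was 44.3 with a 95% counting interval of 7.68 to 1780. Tnfsf8, the ligand of CD30, had 7, 28, 23 and 13 counts in tMCAO_MG_CON and 0, 1 and 0 counts in sham_MG_CON. Its groups did not overlap either, at a ratio, scaled likewise, of 49.2 with an interval of 8.55 to 1970 (edgeR adjusted p = 0.0094). Such intervals cover counting error only, and the FPKM of both genes stayed under 0.5 in these groups. Both genes passed the filter through tMCAO libraries alone, so the intervals and the call of Tnfsf8 are not independent of that choice. Tnfsf9, the ligand of 4-1BB, changed by 1.24 ± 0.43 and was not called (edgeR adjusted p = 0.093).

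Tnfrsf1a, which encodes the p55 receptor that carries the death domain, had the smallest p of all members. It measured 7.98, 10.6, 12.1 and 7.06 FPKM in tMCAO_MG_CON and 2.02, 2.57 and 1.89 FPKM in sham_MG_CON, and the lowest stroke library lay well above the highest sham library. The log2 fold change was 2.03 ± 0.20 (edgeR adjusted p = 6.5e-05). Tnfrsf1b, the p75 receptor without a death domain, measured 1.59, 2.39, 2.52 and 1.77 FPKM in tMCAO_MG_CON and 0.924, 1.22 and 1.09 FPKM in sham_MG_CON. Its groups were also separate, at 0.85 ± 0.20 (edgeR adjusted p = 0.021). Tnfrsf12a, the receptor of the ligand TWEAK, measured 8.09, 9.51, 17.1 and 4.82 FPKM in tMCAO_MG_CON and 3.65, 3.03 and 2.69 FPKM in sham_MG_CON. Replicate 3 was far above the other stroke libraries, and the groups did not overlap (1.55 ± 0.37, edgeR adjusted p = 0.021).

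Tnfrsf22, a decoy receptor that binds TRAIL in mouse, measured 0.217, 0.216, 0.322 and 0.185 FPKM in tMCAO_MG_CON and 0.0506, 0.0142 and 0.0658 FPKM in sham_MG_CON (2.29 ± 0.38, edgeR adjusted p = 0.0036). It lies beside its close relatives Tnfrsf23 and Tnfrsf26 on chromosome 7, so its reads may be split with theirs. Tnfrsf10b, the death receptor for TRAIL in mouse, measured 0.452, 0.761, 0.658 and 0.339 FPKM in tMCAO_MG_CON and 0.179, 0.239 and 0.187 FPKM in sham_MG_CON. Both receptors had separate groups, Tnfrsf10b at 1.35 ± 0.33 (edgeR adjusted p = 0.023). Of the 17 receptors tested, 5 were higher in all.

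None of the 12 TRAF and IAP genes passed the test, with 3 at an unadjusted p under 0.05, against 23.8% of all genes. Among the 5 subunits, Nfkb2, the p100 precursor of the non-canonical branch, measured 1.61, 2.08, 2.29 and 1.47 FPKM in tMCAO_MG_CON and 0.795, 0.534 and 0.621 FPKM in sham_MG_CON. The groups were separate (1.41 ± 0.29, edgeR adjusted p = 0.0097). Its exons overlap those of Psd on the opposite strand, a gene with a mean of 7560 counts that changed by -0.19 ± 0.08 (edgeR adjusted p = 0.18) in the same comparison. Rela, the main activating subunit, measured 10, 10.7, 11.6 and 10.1 FPKM in tMCAO_MG_CON and 7.85, 7.92 and 7.84 FPKM in sham_MG_CON. The step was small next to that of Nfkb2 but the groups were separate (0.34 ± 0.09, edgeR adjusted p = 0.04). Nfkb1, the p105 precursor, averaged 1.53 ± 0.251 FPKM in tMCAO_MG_CON and 1.26 ± 0.0198 FPKM in sham_MG_CON and was not called (0.19 ± 0.11, edgeR adjusted p = 0.3), nor were Rel (0.21 ± 0.16) and Relb (0.18 ± 0.28).

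Nfkbia measured 9.88, 17.1, 15.3 and 16.8 FPKM in tMCAO_MG_CON and 8.82, 9.98 and 8.58 FPKM in sham_MG_CON. Replicate 1 of the stroke group lay inside the sham range, and the change was 0.61 ± 0.17 (edgeR adjusted p = 0.046). Nfkbiz, an inducible nuclear IkB protein, measured 1.64, 2.22, 2.38 and 2.1 FPKM in tMCAO_MG_CON and 0.924, 1.37 and 1.48 FPKM in sham_MG_CON. These groups were separate (0.63 ± 0.17, edgeR adjusted p = 0.037). Tnfaip8, a regulator of cell survival, was higher by 0.72 ± 0.20 (edgeR adjusted p = 0.045). Its exons overlap those of C030005K06Rik on the opposite strand, which changed by -1.09 ± 0.26 (edgeR adjusted p = 0.02). Tnfaip3, which encodes the ubiquitin-editing enzyme A20, measured 0.185, 0.532, 0.690 and 0.577 FPKM in tMCAO_MG_CON and 0.541, 0.463 and 0.556 FPKM in sham_MG_CON. Stroke replicate 1 lay below every sham library, and the other stroke libraries lay within or above the sham range. Tnfaip3 was not called (-0.16 ± 0.31, edgeR adjusted p = 0.81).

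In this comparison the calls of Tnfrsf1a, Tnfrsf22 and Nfkb2 held without any 1 of the 13 libraries (highest edgeR adjusted p 0.0012, 0.017 and 0.049 in that order). The call of Tnfsf8 ended without sham_MG_CON replicate 3 (0.051). That of Tnfrsf12a ended without any 1 of the sham_MG_CON libraries (up to 0.092), and those of Tnfrsf1b and Tnfrsf10b without sham_MG_CON replicates 1 or 3 or tMCAO_MG_CON replicates 2 or 3 (up to 0.092). The call of Nfkbiz ended without sham_MG_CON replicate 1 or 2, tMCAO_MG_CON replicate 2, 3 or 4, or tMCAO_MG_DE replicate 1 (up to 0.14). That of Tnfaip8 ended in 10 of 13 removals (up to 0.15) and held only without sham_MG_DE replicate 1 or 3 or tMCAO_MG_CON replicate 1. Those of Rela (up to 0.12) and Nfkbia (up to 0.15) ended in 11 removals each, Rela holding only without sham_MG_DE replicate 1 or 2 and Nfkbia only without sham_MG_DE replicate 1 or tMCAO_MG_CON replicate 1. The count of higher members, with Tnf counted, was 5 without sham_MG_CON replicate 1 or 3, 7 without replicate 2, and 6 without tMCAO_MG_CON replicate 2 or 3. A member was called lower without sham_MG_CON replicate 2 or tMCAO_MG_CON replicate 1, 2 or 3, 1 in each fit. Without sham_MG_CON replicate 2 and sham_MG_DE replicate 3 together, 6 were higher and 1, Tnfrsf25, was lower.

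Cell type markers moved in the same comparison. Of 7 border macrophage markers 4 were higher, with summed levels of 13.7 to 24.5 CPM in tMCAO_MG_CON and 6.33 to 8.67 CPM in sham_MG_CON. Of 6 tested monocyte markers 2 were higher (30.7 to 49.3 CPM in tMCAO_MG_CON and 20 to 25.1 CPM in sham_MG_CON), as were 3 of 5 astrocyte markers (1420 to 1860 CPM in tMCAO_MG_CON and 910 to 956 CPM in sham_MG_CON) and 3 of 4 fibroblast markers (41.2 to 79.2 CPM in tMCAO_MG_CON and 15.3 to 23.2 CPM in sham_MG_CON). Of the other lists, 1 of 5 endothelial and 1 of 4 pericyte and smooth muscle markers were higher, and 2 of 3 oligodendrocyte precursor, 1 of 3 oligodendrocyte, 2 of 5 neuronal and the 1 tested B cell marker were lower. None of the 8 microglial markers was called. No listed marker of the types given with levels was at 0 in every library of a group, and the part of these types in the member changes was not tested.

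Stroke after depletion was described by tMCAO_MG_DE (n = 2) against sham_MG_DE (n = 4), groups that share no library with those just described. Of the 57 members 6 were higher and 1 was lower, against 12.4% called among all genes, 6.59% higher and 5.84% lower. The median log2 fold change was 0.13, against -0.00 for all genes tested. Tnfrsf1a, Tnfrsf1b, Tnfsf8 and Nfkbiz were higher in both stroke comparisons, which is 33.3% of the 12 members higher with microglia present, Tnf included, and 66.7% of the 6 members higher after depletion. Of the shared members, Tnfsf8 was kept by the filter through tMCAO libraries only. Among all genes tested, 431 were higher in both comparisons, which is 49.5% of 870 and 38.6% of 1116.

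Tnfsf8 measured 0.966 and 0.721 FPKM in tMCAO_MG_DE and 0.0820, 0.0356, 0.110 and 0 FPKM in sham_MG_DE. Both stroke libraries lay above every other library of the study, and the change was 3.83 ± 0.63 (edgeR adjusted p = 0.003). No sham_MG_DE library reached the level of the filter for Tnfsf8, so this call is not independent of the filter either. Tnfsf9 measured 0.830 and 1.82 FPKM in tMCAO_MG_DE and 0.169, 0.220, 0.0973 and 0.0919 FPKM in sham_MG_DE. Its groups were separate although the stroke libraries differed from each other (3.07 ± 0.48, edgeR adjusted p = 0.0022). For Tnfsf9 too, no sham_MG_DE library reached the level of the filter. Tnf had 4 and 5 counts in tMCAO_MG_DE and 5, 5, 4 and 0 counts in sham_MG_DE. The groups overlapped, a comparison of few counts.

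Tnfrsf1a measured 9.46 and 9.68 FPKM in tMCAO_MG_DE and 2.39, 1.80, 1.67 and 1.65 FPKM in sham_MG_DE. The stroke libraries were several times higher than every sham library (2.30 ± 0.20, edgeR adjusted p = 5.8e-05). Tnfrsf1b measured 1 and 1.25 FPKM in tMCAO_MG_DE and 0.637, 0.438, 0.428 and 0.476 FPKM in sham_MG_DE. These were also separate (1.14 ± 0.23, edgeR adjusted p = 0.0091). Tnfrsf25, the death receptor DR3, measured 0.541 and 0.566 FPKM in tMCAO_MG_DE and 1.10, 2.57, 1.61 and 1.89 FPKM in sham_MG_DE. It was the 1 member that fell (-1.73 ± 0.43, edgeR adjusted p = 0.02).

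Traf3ip2, an adaptor of interleukin-17 receptors, measured 0.426 and 0.310 FPKM in tMCAO_MG_DE and 0.211, 0.138, 0.0973 and 0.172 FPKM in sham_MG_DE (1.19 ± 0.34, edgeR adjusted p = 0.037). Its exons overlap those of E130307A14Rik on the opposite strand, a gene with a mean of 381 counts that changed by -0.40 ± 0.13. No subunit was called by edgeR, nor by DESeq2 at its adjusted threshold. At an unadjusted p under 0.05 edgeR gave 0 of 5 as well, against 28.1% of all genes. Nfkb2 averaged 1.81 ± 0.207 FPKM in tMCAO_MG_DE and 1.69 ± 0.646 FPKM in sham_MG_DE (0.05 ± 0.29, edgeR adjusted p = 0.93). Nfkbiz measured 3.31 and 2.82 FPKM in tMCAO_MG_DE and 1.28, 1.64, 1.71 and 1.66 FPKM in sham_MG_DE. It was the IkB gene called here (0.92 ± 0.18, edgeR adjusted p = 0.0071), while Nfkbia averaged 21.8 ± 0.314 FPKM in tMCAO_MG_DE and 16.7 ± 2.54 FPKM in sham_MG_DE and was not called (0.34 ± 0.18, edgeR adjusted p = 0.25).

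The calls of Tnfrsf1a, Tnfsf8 and Tnfsf9 held without any 1 library (highest edgeR adjusted p 0.00089, 0.03 and 0.046 in that order). With 1 stroke library left, the lone library is assumed to vary like the others. Nfkbiz was lost without tMCAO_MG_DE replicate 1 (edgeR adjusted p = 0.077) and Tnfrsf1b without replicate 2 (0.11). Tnfrsf25 was lost without either (up to 0.14), and Traf3ip2 without either or without sham_MG_DE replicate 2, 3 or 4 (up to 0.25). The count of higher members was 4 and of lower members 0 without either stroke library, and 2 members were lower without sham_MG_DE replicate 1. Astrocyte markers summed to 1370 to 1410 CPM in tMCAO_MG_DE and 868 to 998 CPM in sham_MG_DE, with 1 of 5 higher, and 3 of 5 endothelial markers were higher (193 to 211 CPM in tMCAO_MG_DE and 135 to 193 CPM in sham_MG_DE). Of the other lists, 1 of 6 tested monocyte markers was higher, and 2 of 3 oligodendrocyte precursor and 2 of 5 neuronal markers were lower. Border macrophage markers were not called, at 35.7 to 46.9 CPM in tMCAO_MG_DE and 30.4 to 41.7 CPM in sham_MG_DE. The part of these cell types in the member changes was not tested.

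**Figure D2:**
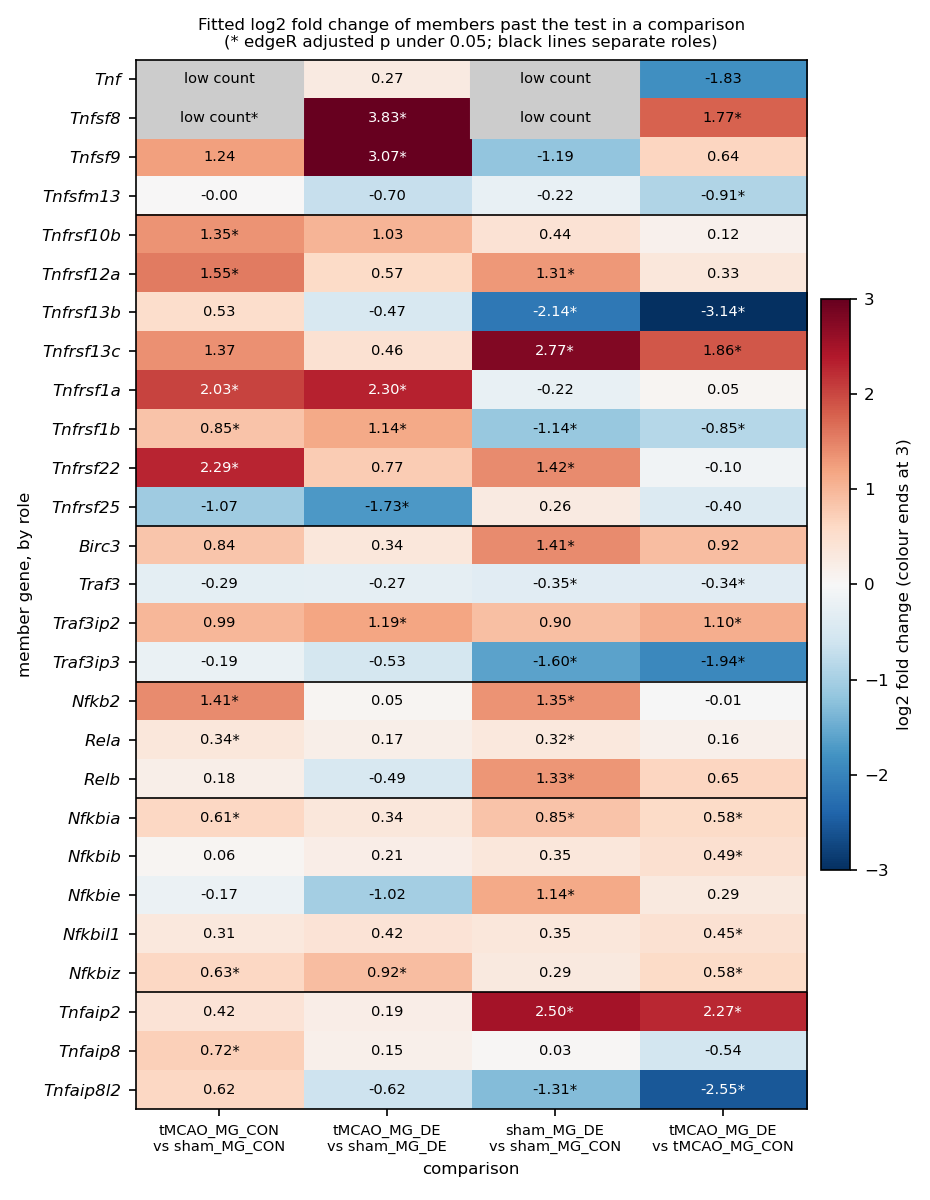
Fitted log2 fold change of the 27 members called in at least 1 comparison, with comparisons along the horizontal axis, members by role on the vertical axis and asterisks for an edgeR adjusted p under 0.05. Grey cells mark Tnf and Tnfsf8 against sham_MG_CON, where 1 count in the sham group gives no usable fold, and Tnf is not marked because the filter chose it through tMCAO_MG_CON. Tnfsf8 and Tnfrsf13b are marked although the filter kept them through the tMCAO and the CON libraries only, in that order. Tnfsf9, Tnfrsf13c, Tnfaip8l2 and Traf3ip3 are marked too, and their calls are likewise not independent of the filter. Tnfrsf1a was called in both stroke comparisons and in neither depletion comparison, whereas Tnfrsf1b was called in all 4.

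Depletion without stroke was described by sham_MG_DE (n = 4) against sham_MG_CON (n = 3). Of the 57 members 10 were higher and 5 lower, against 11.3% called among all genes, 6.85% higher and 4.49% lower. The median log2 fold change was -0.10, against -0.00 for all genes tested. The higher members included the subunits Nfkb2, Relb and Rela, the inhibitors Nfkbia and Nfkbie, the ligase Birc3 and the TNF-induced Tnfaip2. The lower members were Tnfrsf1b, Tnfrsf13b, Tnfaip8l2, Traf3 and Traf3ip3.

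No ligand was called by edgeR or DESeq2. At an unadjusted edgeR p under 0.05 were 4 of 9 tested, against 28.9% of all genes. They included Tnf, whose test is not used here. Tnf and Tnfsf8, each with 1 count in sham_MG_CON, were higher, and Tnfsf9 and Tnfsf12 were lower. Tnf had 5, 5, 4 and 0 counts in sham_MG_DE and 1, 0 and 0 counts in sham_MG_CON, a scaled ratio of 9.98 with a counting interval of 1.52 to 422. Tnfrsf1b measured 0.637, 0.438, 0.428 and 0.476 FPKM in sham_MG_DE and 0.924, 1.22 and 1.09 FPKM in sham_MG_CON. Every depleted library lay below every control library (-1.14 ± 0.21, edgeR adjusted p = 0.0084). Tnfrsf1a averaged 1.88 ± 0.348 FPKM in sham_MG_DE and 2.16 ± 0.361 FPKM in sham_MG_CON, with overlapping groups (-0.22 ± 0.20, edgeR adjusted p = 0.49).

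Tnfrsf13b, the receptor TACI, measured 0.0990, 0.0477, 0 and 0.0837 FPKM in sham_MG_DE and 0.252, 0.271 and 0.251 FPKM in sham_MG_CON (-2.14 ± 0.51, edgeR adjusted p = 0.021). Tnfrsf13c, the receptor of the B cell factor BAFF, went the other way, at 0.113, 0.233, 0.195 and 0.322 FPKM in sham_MG_DE and 0.0421, 0.0158 and 0.0292 FPKM in sham_MG_CON (2.77 ± 0.59, edgeR adjusted p = 0.014). Both had separate groups at low counts. Tnfrsf13b passed the filter through CON libraries only, and Tnfrsf13c would not have passed it without DE libraries. Summed B cell markers were 23.5 to 33.2 CPM in sham_MG_DE and 36.9 to 68.3 CPM in sham_MG_CON, with the 1 of 5 that could be tested lower. Tnfrsf12a measured 5.56, 11.5, 7.21 and 7.34 FPKM in sham_MG_DE and 3.65, 3.03 and 2.69 FPKM in sham_MG_CON (1.31 ± 0.37, edgeR adjusted p = 0.037), and Tnfrsf22 was higher by 1.42 ± 0.40 (edgeR adjusted p = 0.037).

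Birc3 encodes the ligase cIAP2. It measured 0.475, 1.26, 0.521 and 0.960 FPKM in sham_MG_DE and 0.330, 0.271 and 0.289 FPKM in sham_MG_CON (1.41 ± 0.32, edgeR adjusted p = 0.018). Traf3 measured 1.77, 1.73, 1.69 and 1.94 FPKM in sham_MG_DE and 2.12, 2.19 and 2.39 FPKM in sham_MG_CON. The groups of both genes were separate, and Traf3 was lower by a small step (-0.35 ± 0.08, edgeR adjusted p = 0.022). Traf3ip3, an adaptor studied in lymphocytes, had 1 to 12 counts in sham_MG_DE and 17 to 20 counts in sham_MG_CON (-1.60 ± 0.46, edgeR adjusted p = 0.041). Its exons overlap those of A130010J15Rik on the opposite strand, a gene with a mean of 66.5 counts that changed by -0.00 ± 0.32.

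Nfkb2 measured 1.21, 2.40, 1.08 and 2.07 FPKM in sham_MG_DE and 0.795, 0.534 and 0.621 FPKM in sham_MG_CON (1.35 ± 0.29, edgeR adjusted p = 0.013). Psd, on the opposite strand, changed by -0.00 ± 0.08. Relb measured 1.38, 3.10, 1.39 and 2.22 FPKM in sham_MG_DE and 0.879, 0.643 and 0.848 FPKM in sham_MG_CON (1.33 ± 0.27, edgeR adjusted p = 0.012). Both were separate between groups, and in both replicates 2 and 4 stood above replicates 1 and 3. Rela measured 8.63, 11.7, 9.65 and 10.1 FPKM in sham_MG_DE and 7.85, 7.92 and 7.84 FPKM in sham_MG_CON (0.32 ± 0.09, edgeR adjusted p = 0.04). Nfkb1 averaged 1.18 ± 0.0465 FPKM in sham_MG_DE and 1.26 ± 0.0198 FPKM in sham_MG_CON and was not called (-0.12 ± 0.11, edgeR adjusted p = 0.5), and the log2 fold change of Rel was -0.10 ± 0.16.

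Nfkbia measured 14.5, 19.0, 14.5 and 18.9 FPKM in sham_MG_DE and 8.82, 9.98 and 8.58 FPKM in sham_MG_CON. Every depleted library was higher (0.85 ± 0.17, edgeR adjusted p = 0.011). Nfkbie, which encodes IkB epsilon, measured 1.61, 4.68, 1.75 and 3.18 FPKM in sham_MG_DE and 1.32, 0.842 and 1.56 FPKM in sham_MG_CON. Replicates 1 and 3 lay just above the controls and replicates 2 and 4 well above (1.14 ± 0.34, edgeR adjusted p = 0.045). Tnfaip2, a TNF-inducible protein of myeloid and endothelial cells, measured 0.165, 0.531, 0.446 and 0.435 FPKM in sham_MG_DE and 0.0702, 0.0593 and 0.0731 FPKM in sham_MG_CON. It was several times higher in 3 of the 4 depleted libraries (2.50 ± 0.41, edgeR adjusted p = 0.0052). Tnfaip8l2, a negative regulator of immune receptor signalling also called TIPE2, measured 0.232, 0.402, 0.533 and 0.353 FPKM in sham_MG_DE and 0.692, 0.883 and 1.20 FPKM in sham_MG_CON (-1.31 ± 0.31, edgeR adjusted p = 0.02). Tnfaip3 averaged 0.741 ± 0.146 FPKM in sham_MG_DE and 0.520 ± 0.0498 FPKM in sham_MG_CON, with separate groups but no call (0.48 ± 0.31, edgeR adjusted p = 0.32).

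**Figure D3:**
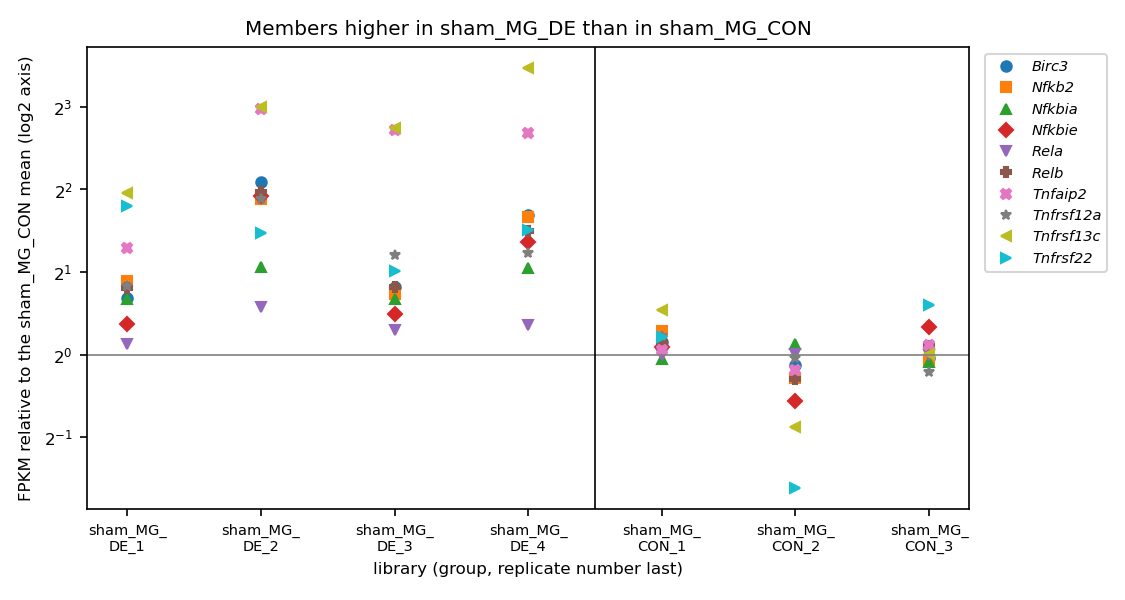
FPKM of the 10 members higher in sham_MG_DE, divided by the sham_MG_CON mean of the gene, for each sham library along the horizontal axis (log2 vertical axis, 1 symbol per gene). Replicates 2 and 4 of sham_MG_DE were the highest of that group for 8 of the 10 genes, the exceptions being Tnfaip2 and Tnfrsf22.

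The libraries of sham_MG_DE were not alike in these genes. Replicates 2 and 4 were the highest of the 4 for 8 of the 10 higher members (80%), for 607 of the 1161 genes higher in this comparison (52.3%), for 15 of the 57 members tested (26.3%) and for 3001 of the 16940 genes tested (17.7%). This order was noticed in the values and is a description. Over all genes tested, replicate 1 stood apart on the first axis of a principal component analysis. It lay at 5.04, against -44.7, -31.9 and -48 for replicates 2, 3 and 4. The calls of Tnfaip2 and Tnfrsf1b held without any 1 library (highest edgeR adjusted p 0.027 and 0.036). That of Relb ended without sham_MG_CON replicate 2 (0.05 after rounding), that of Nfkbia without replicate 3 (0.052), and those of Nfkb2 and Tnfrsf13c without replicate 2 or 3 (up to 0.056). Birc3 was lost without any 1 sham_MG_CON library or sham_MG_DE replicate 4 (up to 0.064), Tnfrsf13b without any 1 sham_MG_CON library or sham_MG_DE replicate 2 (up to 0.062), Traf3 without sham_MG_CON replicate 3 or sham_MG_DE replicate 2 or 3 (up to 0.091) and Tnfaip8l2 without sham_MG_CON replicate 3 or sham_MG_DE replicate 2 or 4 (up to 0.09). Any 1 sham_MG_CON library also decided Tnfrsf12a, Tnfrsf22, Traf3ip3, Rela and Nfkbie, with adjusted p up to 0.12, 0.1, 0.11, 0.11 and 0.14 over all removals. Tnfrsf12a was further lost without sham_MG_DE replicate 2, 3 or 4, and Tnfrsf22 without sham_MG_DE replicate 2 or 4 or either tMCAO_MG_DE library. Traf3ip3 held only without sham_MG_DE replicate 1 or 2 or a tMCAO_MG_DE library, Rela only without sham_MG_DE replicate 1 or tMCAO_MG_CON replicate 3, and Nfkbie only without sham_MG_DE replicate 1 or 3.

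The counts of members called were 5 higher and 3 lower without sham_MG_CON replicate 1, 2 and 3 without replicate 2, and 2 and 1 without replicate 3. They were 6 and 2 without sham_MG_DE replicate 2, 5 and 3 without replicate 4, 8 and 3 without replicate 3, and 13 and 9 without replicate 1. Without sham_MG_CON replicate 2 and sham_MG_DE replicate 3 together, edgeR called 0 and 0 members at the adjusted threshold, 13 higher and 8 lower at an unadjusted p under 0.05. It called 1.35% of all genes at the adjusted threshold. The log2 fold changes were then 1.38 for Nfkb2 (edgeR adjusted p = 0.051), 1.33 for Relb (0.053), 2.35 for Tnfaip2 (0.053) and -0.99 for Tnfrsf1b (0.071). Microglial markers were lower in 8 of 8 and border macrophage markers higher in 6 of 7 (30.4 to 41.7 CPM in sham_MG_DE and 6.33 to 8.67 CPM in sham_MG_CON). None of them was at 0 in every library of a group. Monocyte markers were higher in 2 of 6 and astrocyte markers in 1 of 5, and neutrophil, oligodendrocyte and oligodendrocyte precursor markers were lower in 1 of 6, 1 of 3 and 1 of 3. Their part in the member changes was not tested.

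Depletion with stroke was described by tMCAO_MG_DE (n = 2) against tMCAO_MG_CON (n = 4). Of the 57 members 8 were higher and 6 lower, against 18.6% called among all genes, 9.36% higher and 9.26% lower. The median log2 fold change was -0.09, against -0.01 for all genes tested. Of these, 3 higher members (Nfkbia, Tnfaip2 and Tnfrsf13c) and 5 lower members (Tnfrsf1b, Tnfrsf13b, Tnfaip8l2, Traf3 and Traf3ip3) had also been called in the sham mice, which have no library in common with these groups. The 3 are 30% of the higher members in sham mice and 37.5% of those after stroke, and the 5 are 100% and 83.3% of the lower members. Among the 5, Tnfrsf13b was kept by the filter through CON libraries only, and Tnfaip8l2 and Traf3ip3 would not have been kept without CON libraries. Among the 3, Tnfrsf13c would not have been kept without DE libraries. Among all genes tested, the shares were 52.1% and 38.1% of the higher genes and 55.5% and 26.9% of the lower genes.

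Tnfsf8 measured 0.966 and 0.721 FPKM in tMCAO_MG_DE and 0.105, 0.362, 0.371 and 0.167 FPKM in tMCAO_MG_CON (1.77 ± 0.55, edgeR adjusted p = 0.04). Tnf had 4 and 5 counts in tMCAO_MG_DE and 11 to 30 counts in tMCAO_MG_CON. The groups of both ligands were separate, Tnfsf8 higher and Tnf lower in tMCAO_MG_DE. The filter kept Tnf through tMCAO_MG_CON alone, so its separation is not independent of the filter. Tnfsfm13, a readthrough transcript that shares exons with Tnfsf12 and Tnfsf13, was lower by -0.91 ± 0.28 (edgeR adjusted p = 0.04), so reads of these 3 genes cannot be told apart.

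Tnfrsf1b measured 1 and 1.25 FPKM in tMCAO_MG_DE and 1.59, 2.39, 2.52 and 1.77 FPKM in tMCAO_MG_CON (-0.85 ± 0.23, edgeR adjusted p = 0.023). Tnfrsf1a averaged 9.57 ± 0.159 FPKM in tMCAO_MG_DE and 9.43 ± 2.33 FPKM in tMCAO_MG_CON (0.05 ± 0.20, edgeR adjusted p = 0.88). The depleted stroke libraries thus lay below all others of the stroke groups for Tnfrsf1b and within their range for Tnfrsf1a. Tnfrsf13b measured 0.0648 and 0.0215 FPKM in tMCAO_MG_DE and 0.303, 0.427, 0.403 and 0.454 FPKM in tMCAO_MG_CON (-3.14 ± 0.64, edgeR adjusted p = 0.0075). No DE library reached the level of the filter for Tnfrsf13b, which limits its calls in both depletion comparisons. Tnfrsf13c measured 0.263 and 0.345 FPKM in tMCAO_MG_DE and 0.0311, 0.0534, 0.150 and 0.106 FPKM in tMCAO_MG_CON (1.86 ± 0.50, edgeR adjusted p = 0.024).

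Among the adaptors, Traf3 measured 1.61 and 1.44 FPKM in tMCAO_MG_DE and 2.15, 1.76, 1.93 and 1.98 FPKM in tMCAO_MG_CON (-0.34 ± 0.10, edgeR adjusted p = 0.031). Traf3ip2 measured 0.426 and 0.310 FPKM in tMCAO_MG_DE and 0.163, 0.190, 0.162 and 0.179 FPKM in tMCAO_MG_CON (1.10 ± 0.34, edgeR adjusted p = 0.039). Both had separate groups, as did Traf3ip3, with 7 and 2 counts in tMCAO_MG_DE and 13 to 21 counts in tMCAO_MG_CON (-1.94 ± 0.59, edgeR adjusted p = 0.037). On the opposite strand, E130307A14Rik at Traf3ip2 changed by 0.02 ± 0.13 and A130010J15Rik at Traf3ip3 by -0.04 ± 0.35. No subunit was called by edgeR or DESeq2, with 2 of 5 at an unadjusted edgeR p under 0.05, against 34.5% of all genes. The log2 fold changes were -0.01 ± 0.29 for Nfkb2, 0.65 ± 0.30 for Relb and 0.16 ± 0.10 for Rela.

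Of the 6 IkB genes 4 were higher. Nfkbia measured 21.5 and 22.0 FPKM in tMCAO_MG_DE and 9.88, 17.1, 15.3 and 16.8 FPKM in tMCAO_MG_CON (0.58 ± 0.18, edgeR adjusted p = 0.044). Nfkbiz measured 3.31 and 2.82 FPKM in tMCAO_MG_DE and 1.64, 2.22, 2.38 and 2.1 FPKM in tMCAO_MG_CON (0.58 ± 0.18, edgeR adjusted p = 0.041). Both of these IkB genes were highest in the depleted stroke group, with no overlap. Nfkbib, which encodes IkB beta, measured 13.5 and 11.1 FPKM in tMCAO_MG_DE and 9.56, 8.05, 9.38 and 8.69 FPKM in tMCAO_MG_CON (0.49 ± 0.13, edgeR adjusted p = 0.022). Nfkbil1, an IkB-like gene, measured 8.16 and 7.64 FPKM in tMCAO_MG_DE and 5.84, 5.76, 5.79 and 6.16 FPKM in tMCAO_MG_CON (0.45 ± 0.13, edgeR adjusted p = 0.034). Nfkbib overlaps Sirt2 on the opposite strand, which changed by 0.10 ± 0.17, and Nfkbil1 overlaps Atp6v1g2, which changed by 0.01 ± 0.56.

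Tnfaip2 measured 0.560 and 0.362 FPKM in tMCAO_MG_DE and 0.0842, 0.150, 0.0902 and 0.0607 FPKM in tMCAO_MG_CON (2.27 ± 0.40, edgeR adjusted p = 0.0037). Tnfaip8l2 measured 0.228 and 0.272 FPKM in tMCAO_MG_DE and 1.53, 1.54, 1.42 and 1.57 FPKM in tMCAO_MG_CON (-2.55 ± 0.38, edgeR adjusted p = 0.0019). The groups of both were separate by wide margins, with Tnfaip2 high and Tnfaip8l2 low after depletion. Tnfaip3 averaged 0.608 ± 0.0872 FPKM in tMCAO_MG_DE and 0.496 ± 0.218 FPKM in tMCAO_MG_CON (0.32 ± 0.34, edgeR adjusted p = 0.55).

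The calls of Tnfaip2 and Tnfaip8l2 held without any 1 library (highest edgeR adjusted p 0.042 and 0.034). That of Tnfrsf13b ended without tMCAO_MG_DE replicate 2 (0.098). Every other call of this comparison ended without tMCAO_MG_DE replicate 1 and also without replicate 2, with highest adjusted p from 0.17 for Tnfrsf1b, Tnfrsf13c and Nfkbil1 to 0.29 for Traf3ip3. Apart from Tnfrsf13b, Tnfaip2 and Tnfaip8l2, each call also ended without at least 1 tMCAO_MG_CON library, which was replicate 2 for Nfkbib and Tnfrsf13c, replicate 3 for Tnfrsf1b and Nfkbia, and replicate 1 or 4 for Traf3 and Tnfsf8. For Nfkbil1 it was replicate 1, 2 or 3, for Nfkbiz replicate 1, 2 or 4, for Tnfsfm13 and Traf3ip3 replicate 2, 3 or 4, and for Traf3ip2 any of the 4. Sham libraries decided Nfkbia (any of sham_MG_CON), Tnfsf8 (sham_MG_CON replicate 2 or 3) and Tnfsfm13 and Traf3ip3 (sham_MG_CON replicate 3). The counts were 1 higher and 2 lower without tMCAO_MG_DE replicate 1 and 1 and 1 without replicate 2. They were 4 and 7 without tMCAO_MG_CON replicate 1, 3 and 5 without replicate 2, 5 and 3 without replicate 3, and 5 and 3 without replicate 4, the library with the conflicting label. Without sham_MG_CON replicate 2 and sham_MG_DE replicate 3 together they were 5 and 5. Microglial markers were lower in 7 of 8 and border macrophage markers higher in 3 of 7, at 35.7 to 46.9 CPM in tMCAO_MG_DE and 13.7 to 24.5 CPM in tMCAO_MG_CON. Pericyte and smooth muscle markers were lower in 2 of 4 (117 to 144 CPM in tMCAO_MG_DE and 157 to 215 CPM in tMCAO_MG_CON), monocyte markers in 2 of 6, oligodendrocyte precursor markers in 2 of 3, and fibroblast, astrocyte and neutrophil markers in 1 of 4, 1 of 5 and 1 of 6. Higher were 1 of 3 tested T cell and 1 of 5 neuronal markers. The part of these cell types in the member changes was not tested.

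**Figure D4:**
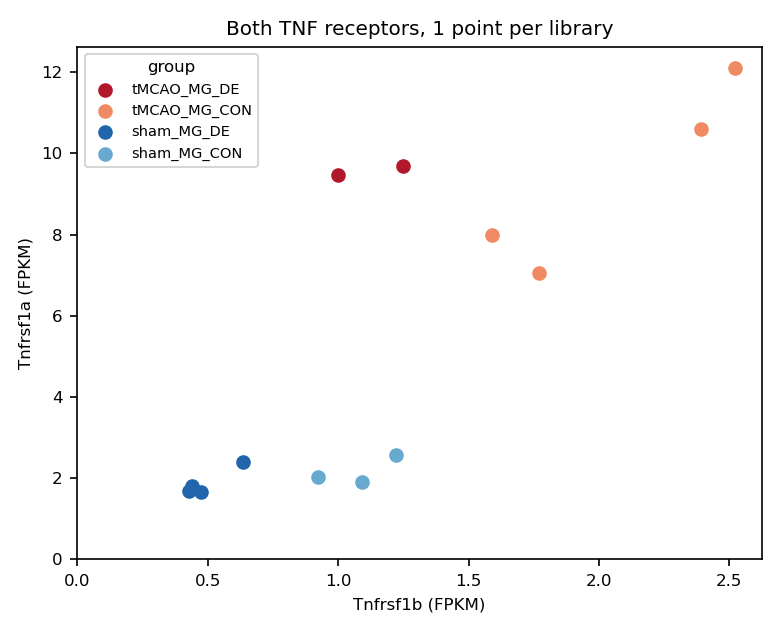
FPKM of Tnfrsf1a (vertical axis) against Tnfrsf1b (horizontal axis), 1 point per library and 1 colour per group. The 4 groups occupy separate areas, with Tnfrsf1a splitting tMCAO from sham libraries and Tnfrsf1b splitting DE from CON libraries within each surgery.

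The balance of the pair of TNF receptors is given as a ratio, which was not tested. The ratio of Tnfrsf1a to Tnfrsf1b in FPKM was 9.42 and 7.77 in tMCAO_MG_DE, 5, 4.43, 4.80 and 3.99 in tMCAO_MG_CON, 3.75, 4.11, 3.90 and 3.47 in sham_MG_DE and 2.19, 2.11 and 1.74 in sham_MG_CON. The order of the groups was tMCAO_MG_DE, tMCAO_MG_CON, sham_MG_DE and sham_MG_CON from high to low, and the neighbours tMCAO_MG_CON and sham_MG_DE overlapped. The highest level of Tnfrsf1b was in tMCAO_MG_CON, while tMCAO_MG_DE and sham_MG_CON overlapped, at 1.12 ± 0.171 and 1.08 ± 0.148 FPKM. On GRCm38, the build of the deposited tables, Tnfrsf1a lies on chromosome 6 from 125349362 to 125362484 on the plus strand with 11 exon blocks, and Tnfrsf1b on chromosome 4 from 145213463 to 145246870 on the minus strand with 10. No other gene overlaps the exons of either.

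Whether the stroke response differed with depletion was tested as an interaction. edgeR called 0 of 57 members, against 0.0472% of all genes (0.0059% higher and 0.0413% lower), with 5 members at an unadjusted p under 0.05, 1 of them higher and 4 lower. That is 8.77% of the members, against 9.72% of all genes. Without Tnf it was 4 of 56 members (7.14%). DESeq2 and limma on log2 FPKM called 0 as well. The interaction was -1.36 ± 0.41 for Nfkb2 (edgeR adjusted p = 0.33), 1.83 ± 0.66 for Tnfsf9 (0.41), -1.52 ± 0.54 for Tnfrsf22 (0.4), -1.24 ± 0.50 for Tnfaip8l2 (0.46), 0.27 ± 0.28 for Tnfrsf1a (0.79) and 0.29 ± 0.31 for Tnfrsf1b (0.8). A difference between the stroke responses was thus not shown for any member, which does not show that they were alike. The other member of the 5 was Tnf, whose fitted value rests on the single count in sham_MG_CON and is not given.

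Other genes of the pathway were read from 3 lists, whose counts stand against the 8.44%, 12.4%, 11.3% and 18.6% of all genes called in the 4 comparisons in the order above. Of 10 tested TNF superfamily genes with other symbols, 4 were higher and 0 lower in tMCAO_MG_CON than in sham_MG_CON, namely Ltbr, the lymphotoxin beta receptor (1.25, edgeR adjusted p = 0.0004), Ngfr, the p75 neurotrophin receptor (2.23, 0.0083), Eda2r, an ectodysplasin receptor (3.16, 0.005), and Fas, the death receptor (1.30, 0.014). In tMCAO_MG_DE against sham_MG_DE, Ltbr (1.31) and Ngfr (1.56) were higher. In sham_MG_DE against sham_MG_CON the ligand gene Ltb was higher (1.43, edgeR adjusted p = 0.021), and in tMCAO_MG_DE against tMCAO_MG_CON the ligand gene Lta (2.15) and the receptor gene Relt (0.64) were higher.

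Of 26 kinases, adaptors and deubiquitinases, 2 were higher and 0 lower in tMCAO_MG_CON than in sham_MG_CON, 3 higher and 1 lower in tMCAO_MG_DE than in sham_MG_DE, 3 and 3 in sham_MG_DE against sham_MG_CON, and 1 and 4 in tMCAO_MG_DE against tMCAO_MG_CON. These counts are given as a description of the list. Ripk3, the kinase of necroptosis, was higher in tMCAO_MG_CON (3.28, edgeR adjusted p = 0.0053), as was Adam17, the protease that sheds TNF and its receptors (0.37, 0.019). Map3k14, the kinase of the non-canonical branch, was higher in sham_MG_DE than in sham_MG_CON (1.56, edgeR adjusted p = 0.0091). Casp8, the caspase of death receptors, was lower in both depletion comparisons, at -0.98 in sham mice and -1 after stroke. Of 21 tested genes commonly induced by NF-kB, 12 were higher and 0 lower in tMCAO_MG_CON against sham_MG_CON (median 1.74), 9 and 0 in tMCAO_MG_DE against sham_MG_DE (1.04), 6 and 0 in sham_MG_DE against sham_MG_CON (1.08), and 2 and 1 in tMCAO_MG_DE against tMCAO_MG_CON (0.20).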

How the data were processed

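Paired-end TruSeq RNA libraries of 13 mouse brains were analysed, each counted as 1 animal because the animal identifiers in the labels differ. Per the file headers, the authors deposited 1 table for each group, which lists each gene's count and FPKM in every library and the mean FPKM. The counts deposited by the authors are whole numbers without normalisation. The FPKM deposited by the authors was, for each member, proportional to the count over the library total. Per the submitters' processing notes, Cufflinks 2.1.1, Cuffdiff and mm10 were used. The sources used here name no aligner, annotation or strand setting, so reads of genes that overlap on opposite strands cannot be told apart (17 members).

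Tables held 22110 (sham) or 22160 (tMCAO) entries, and 26 gene names that had become dates were dropped. Library totals ran from 16240416 to 22081167 counts. Libraries correlated at r = 0.976 to 0.987 within groups across genes, and no replicate pair agreed within sampling noise. Counts were scaled by TMM and filtered (at least 10 counts at the median library, that is 0.522 CPM, in at least 2 libraries and 15 in total), which kept 16940 genes. Group means were fitted over all libraries with the quasi-likelihood test of edgeR 4.0.16 in R 4.3.3, two-sided, with Benjamini-Hochberg adjustment over all genes tested. The standard error is the absolute log2 fold change over the square root of F. With 1 to 3 counts in a group, a count ratio with an exact 95% interval is given. The fit was tested on simulated counts. Alternatives were DESeq2 1.42.0, RLE scaling, 2 filters, limma 3.58.1 on log2(FPKM + 1) and log2(FPKM + 0.1), the compared groups alone, a replicate block, and fits without libraries.

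The members, the gene lists and the tests were chosen with earlier results of these data known. Named with values per library were 7 set members (Tnf, Tnfrsf1a, Tnfrsf1b, Rela, Nfkb1, Nfkbia and Tnfaip3) and up to 10 members of smallest adjusted p per comparison, and with less detail up to 4 per role of largest change or highest level. A few further members are named where a count or a neighbour called for it. Gene positions are from GENCODE on GRCm38, the build called mm10. Promoters are from a RefSeq table on GRCm38.p6 that matched 51 members. A protein table was not used here.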

Additional observations from a re-analysis of the deposited data

Results flagged for a closer look

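Among 52 groups of 4 libraries, 3 members had 1 library set apart from the other 3 by Dixon's criterion, which chance meets in about 1 of 20 groups. Nfkbiz was lowest in sham_MG_DE replicate 1, at 1.28 FPKM against 1.64 to 1.71 FPKM in the others. Tnf was lowest in sham_MG_DE replicate 4, at 0 FPKM. Tnfrsf25 was highest in tMCAO_MG_CON replicate 3, at 1.23 FPKM against 0.544 to 0.628 FPKM in the others. Tnfsf14, the ligand LIGHT, was listed in the tMCAO tables only and was in no comparison, with counts of 4 and 0 in tMCAO_MG_DE and 0, 0, 4 and 0 in tMCAO_MG_CON, so its highest count was 4.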

How the results depend on the processing

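No call changed direction under any alternative run. All 48 calls held with DESeq2 and with RLE scaling. Of the 48, 47 held with a stricter filter, 42 without a filter on low counts and 40 with limma at either pseudocount. With the compared groups only, 33 held. Counts here include Tnf. Against 12 higher and 0 lower members in tMCAO_MG_CON over sham_MG_CON, there were 3 lower with DESeq2 and 1 lower with RLE scaling, and DESeq2 gave 2 lower members in tMCAO_MG_DE over sham_MG_DE. In sham_MG_DE over sham_MG_CON, a fit to the compared groups only gave 5 higher and 1 lower, and limma gave 3 lower at either pseudocount. Without sham_MG_CON replicate 2 and sham_MG_DE replicate 3 together, there were 6 higher and 1 lower members in tMCAO_MG_CON over sham_MG_CON, 0 higher and 0 lower in sham_MG_DE over sham_MG_CON, and 5 higher in tMCAO_MG_DE over tMCAO_MG_CON. Fewer samples entered these fits. Same-numbered libraries correlated at -0.0554 to 0.106 in their deviations from the group means, so the numbers were not taken to pair animals. With the replicate number as a block, the pairing fit gave 8 higher and 0 lower members in tMCAO_MG_CON over sham_MG_CON, 5 higher and 0 lower in tMCAO_MG_DE over sham_MG_DE, 6 higher and 4 lower in sham_MG_DE over sham_MG_CON, and 4 higher and 4 lower in tMCAO_MG_DE over tMCAO_MG_CON, and 31 of the 48 calls held. Over the fits without 1 library each, higher members numbered 5 to 12 and lower ones 0 to 1 in tMCAO_MG_CON over sham_MG_CON, 4 to 7 and 0 to 2 in tMCAO_MG_DE over sham_MG_DE, 2 to 13 and 1 to 9 in sham_MG_DE over sham_MG_CON, and 1 to 9 and 1 to 7 in tMCAO_MG_DE over tMCAO_MG_CON, with 0 for the interaction. The causes of these changes were not tested. Depth limits members of few counts, such as Tnf, Tnfsf8, Tnfrsf13b and Traf3ip3, and left 5 untested, and 2 libraries limit every result of tMCAO_MG_DE.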
